A study of Mus musculus with 6 samples.

Results

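The genes described here are 37 enzymes that carry one-carbon units on folate and build purine, pyrimidine and deoxynucleotides, together with the enzymes of serine synthesis that feed them. They are 37 of the 27202 genes in the deposited table, and each was found there under its symbol. The 37 were chosen by name with results of the same contrast known, so their differences between the genotypes are given as a description and carry no test. RNA of the colon was sequenced in 3 libraries from mice of the genotype Nedd4l fl/fl Villin Cre, labelled cKO, and in 3 libraries from Nedd4l fl/fl littermates, labelled WT. Both genotypes carry the floxed Nedd4l alleles, and the cKO mice differ by a Cre driven by the Villin promoter, which is active in the intestinal epithelium, so the whole tissue also contains cells in which Nedd4l is not deleted. All mice were 8 to 10 weeks old and by the labels drank 2% (w/v) DSS (dextran sulfate sodium, which damages the lining of the colon) for 7 days before the tissue was taken. No mice without DSS are in the series.

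Folate carries single carbon atoms at several oxidation states. Serine is the main donor, and serine hydroxymethyltransferases move its side-chain carbon to tetrahydrofolate in mitochondria (Shmt2) and in the cytosol (Shmt1). The mitochondrial arm releases formate, and the cytosolic trifunctional enzyme Mthfd1 loads formate back onto folate for purine rings, thymidylate and the remethylation of homocysteine. Dividing crypt cells of the colon need these products to copy their DNA, and many of the enzymes are known targets of the transcription factors E2F, MYC or ATF4.

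The promoter windows of Mthfd1 and Shmt1 are printed because these cytosolic folate enzymes stood lower together in cKO, and those of Ppat and Paics because these purine enzymes start 276 bases apart on opposite strands. Each window holds 250 bases before and 50 bases after a transcription start of RefSeq on GRCm38.p6, reads 5′ to 3′ on the strand of its gene, and shows in capitals the letters of a searched motif. Mthfd1 is at chr12:76254982-76255281 on the plus strand, Shmt1 at chr11:60811216-60811515 on the minus strand, Ppat at chr5:76951529-76951828 on the minus strand and Paics at chr5:76951052-76951351 on the plus strand. In the table, whose coordinates are those of GRCm38, the Mthfd1 gene runs from 76255298 to 76319803 on chromosome 12, so it starts downstream of the window, and Shmt1 runs from 60788104 to 60811718 on chromosome 11. Ppat runs from 76913249 to 76951578 and Paics from 76951307 to 76967509 on chromosome 5.
Mthfd1: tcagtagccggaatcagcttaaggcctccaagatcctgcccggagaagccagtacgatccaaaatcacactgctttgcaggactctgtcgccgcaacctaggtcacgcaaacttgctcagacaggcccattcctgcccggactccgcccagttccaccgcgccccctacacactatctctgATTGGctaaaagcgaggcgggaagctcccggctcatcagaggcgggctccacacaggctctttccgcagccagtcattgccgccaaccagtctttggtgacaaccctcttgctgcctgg
Shmt1: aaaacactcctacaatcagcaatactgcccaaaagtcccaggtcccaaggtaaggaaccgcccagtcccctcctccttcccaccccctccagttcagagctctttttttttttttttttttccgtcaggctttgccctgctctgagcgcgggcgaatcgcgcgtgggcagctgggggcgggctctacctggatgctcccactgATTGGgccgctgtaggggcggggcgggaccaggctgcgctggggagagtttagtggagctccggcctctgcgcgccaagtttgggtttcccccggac
Ppat: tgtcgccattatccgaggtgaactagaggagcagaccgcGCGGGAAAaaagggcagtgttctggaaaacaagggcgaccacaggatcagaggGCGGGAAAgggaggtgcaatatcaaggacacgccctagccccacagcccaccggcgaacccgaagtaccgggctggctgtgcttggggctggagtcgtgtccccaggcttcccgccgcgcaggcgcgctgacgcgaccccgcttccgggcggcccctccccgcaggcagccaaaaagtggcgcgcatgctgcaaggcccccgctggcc
Paics: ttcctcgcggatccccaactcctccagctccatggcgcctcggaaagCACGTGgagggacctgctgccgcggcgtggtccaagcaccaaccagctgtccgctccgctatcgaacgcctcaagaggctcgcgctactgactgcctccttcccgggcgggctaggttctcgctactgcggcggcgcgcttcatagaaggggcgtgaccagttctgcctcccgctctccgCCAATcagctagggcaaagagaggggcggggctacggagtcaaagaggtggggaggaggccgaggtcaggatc
The motifs searched on both strands were E2F (TTTCCCGC, TTTGGCGC or TTTCGCGC), the E-box bound by MYC and its relatives (CACGTG), the NF-Y box (CCAAT) and the amino acid response element bound by ATF4 (TGATGNAA). The capitals are the NF-Y box on the reverse strand in Mthfd1 and Shmt1, an E2F motif on the reverse strand at 2 places in Ppat, and an E-box and an NF-Y box in Paics. Windows were at hand for 33 of the 37 members, in 41 windows, with none for Aldh1l2, Pfas, Dhodh and Rrm2b. Only exact matches to the searched letters were counted, so a window without a match may still hold a site that differs from them. The E2F motif was in 1 of the 41 windows (2.44%), that of Ppat, against 1.84% of all 32851 promoter windows. In 26 windows of 21 genes of DNA replication it was in 9 (34.6%). The E-box was in the windows of Atic, Tyms, Paics and Impdh2 (9.76% of the 41 against 7.15% of all), and the NF-Y box was in 16 windows (39.0% against 37.4%). The amino acid response element was in 0 of 41 windows and in 3.97% of all.

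The deposited values are normalized counts, the reads of a gene divided by 1 size factor per library. Taking the smallest value of a library as its step, the 6 libraries totalled between 14914367 and 17547270 steps. Nedd4l, the targeted gene, measured 476, 942 and 566 normalized counts in cKO and 1241, 1271 and 1266 in WT (662 ± 247 against 1259.6 ± 16.0, SD, n = 3). The library cKO2 therefore kept the most Nedd4l RNA of the 3 cKO libraries. Over all tested genes cKO2 correlated more closely with WT (mean r = 0.977) than with its own genotype (0.966), a mean that includes its pair with cKO1. The same means were 0.948 and 0.963 for cKO1 and 0.973 and 0.975 for cKO3. The library cKO1 stood apart by its neutrophil RNA, with 7281 normalized counts over 6 marker genes against 189 and 1094 in cKO2 and cKO3 and 114 to 157 in WT. Epithelial RNA was present in every library, with Epcam, an epithelial adhesion protein, between 20973 and 24439 normalized counts, and of 5 markers of the small intestine Lct, Sis and Apoa4 were at 0 to 4.42, Fabp6 at 27.8 to 163 and Mep1b at 1390.0 to 1761. In whole tissue, fewer cells of a type and less RNA per cell cannot be told apart. The labels call the libraries separate samples of a genotype, and p-values set the difference between the genotypes against the spread between these samples only.

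Most of the 37 enzymes stood lower in cKO. The difference, the log2 of normalized counts in cKO minus that in WT, was below 0 for 30 members and above 0 for 7, where 49.8% of all 16246 tested genes were below 0. Its median over the members was −0.34, against 0.00132 over all tested genes. All 3 cKO libraries lay below all 3 WT libraries for 17 members and above them for 0, where 10.9% and 10.5% of all tested genes did so. The members that did not overlap were Mthfd1l, Shmt1, Mthfd1, Ppat, Gart, Pfas, Adsl, Atic, Impdh2, Cad, Dhodh, Umps, Rrm1, Tyms, Dut, Tk1 and Dctd. The 7 members above 0 were Psat1, Mthfd2l, Aldh1l2, Mtr, Aprt, Ctps2 and Rrm2b. In the limma fit across all genes 0% of genes passed an adjusted p of 0.05, members included, the smallest adjusted p of any gene being 0.111. At an unadjusted p under 0.05 limma counted 18 members lower and 1 higher (Aldh1l2), against 7.08% and 6.91% of all tested genes.

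How many members passed the threshold depended on the settings of the fit. Array weights in limma, chosen after seeing the data, give less weight to libraries that vary more. With them 17 members passed an adjusted p of 0.05 as lower and 0 as higher, where 2.27% and 1.61% of all tested genes did. With no filter on low values Mthfd1 and Shmt1 passed as lower (0.0846% of 27202 genes did). Without cKO1, Mthfd1 and Cad passed (0.135% of genes lower), 34 members were below 0 (49% of all tested genes were) and 26 did not overlap (15.6% of all tested genes did not, with 2 cKO libraries against 3 WT libraries). Without cKO2, Mthfd1 and Shmt1 passed (0.32% of genes lower), 29 members were below 0 (50.6% of all tested genes) and 17 did not overlap (19.1%). The median of the members was −0.41 without cKO1 and −0.32 without cKO2.

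**Figure D1:**
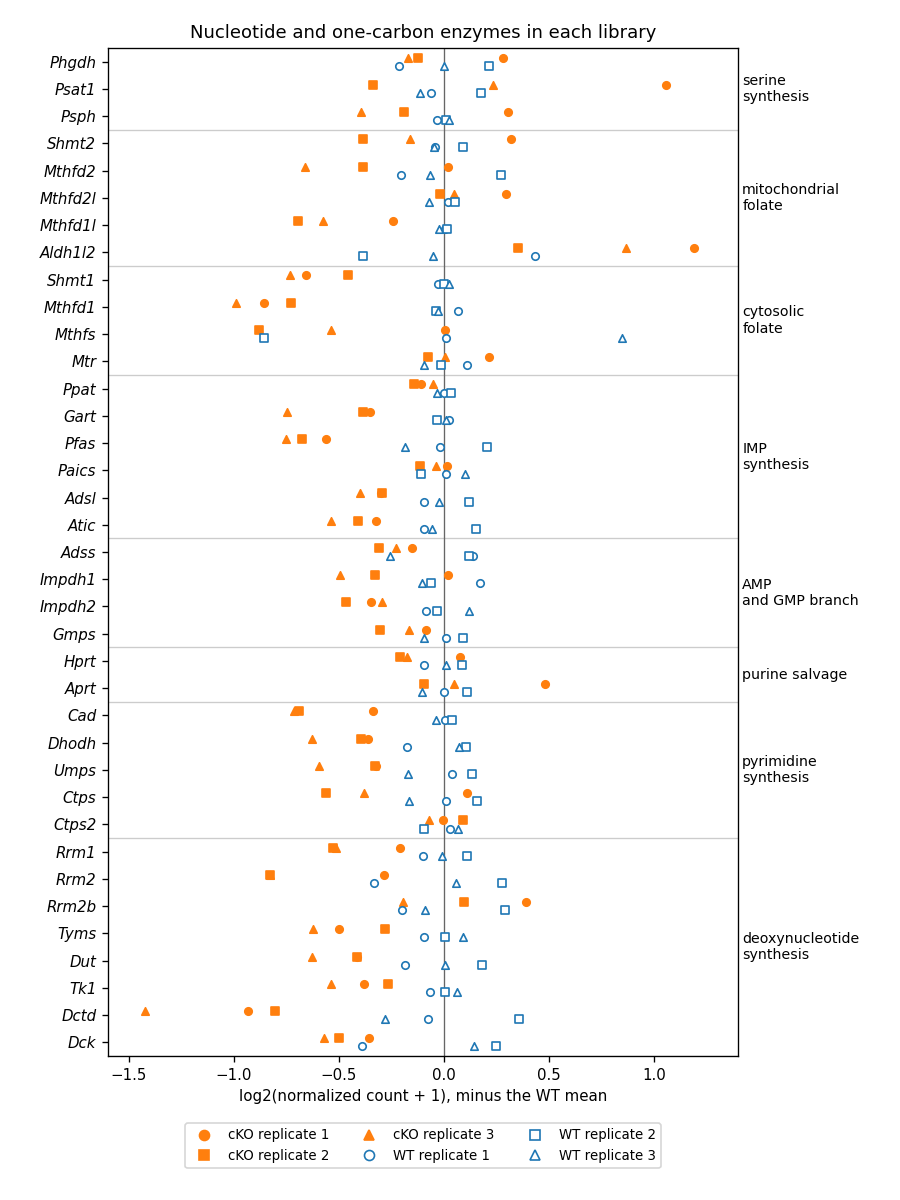
Log2 difference of each library from the WT mean (x axis, log2 units) for the 37 enzymes (y axis, grouped by branch). Orange points are the 3 cKO libraries and blue points the 3 WT libraries, with circle, square and triangle for replicates 1, 2 and 3. In the cytosolic folate, IMP and deoxynucleotide branches most orange points lie left of the blue ones, and in the serine branch the point of cKO1 lies right of them for Psat1.

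Serine synthesis, which drains a glycolytic intermediate into serine, did not separate the genotypes. Phgdh, the first and committing enzyme, measured 709, 535 and 519 normalized counts in cKO and 504, 677 and 584 in WT, with equal means of 588. Psat1, the transaminase of the middle step, measured 783, 297 and 443 in cKO and 360.5, 425 and 347 in WT. Its log2 difference of 0.32 (SE 0.34) rested on cKO1 and was −0.05 without that library. Psph, the phosphatase that releases serine, ran from 123 to 200.3 in cKO and from 158 to 165 in WT. In all 3 genes cKO1 held the highest of the 6 values.

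The mitochondrial folate arm was mixed. Mthfd1l, the synthetase that releases formate for export, was the only one of its 5 members that did not overlap, with 522, 381 and 414 normalized counts in cKO and 621, 625 and 608 in WT (log2 difference −0.51, SE 0.13). Shmt2 measured 870.4, 534 and 623 in cKO against 677, 741 and 675 in WT, so that cKO1 was above and the other cKO libraries below every WT library. Mthfd2, the dehydrogenase and cyclohydrolase of proliferating cells, ran from 203 to 327 in cKO and from 279 to 389.5 in WT (−0.34, SE 0.20). Its paralog Mthfd2l differed by 0.11 (SE 0.15). Aldh1l2, which oxidizes formyl-folate to carbon dioxide and makes NADPH, was the member with the highest difference, 0.80 (SE 0.31). It measured 95.9, 53.1 and 76.3 in cKO and 56.3, 31.5 and 39.9 in WT, so the genotypes overlapped, and D10Wsu102e, which overlaps it on the opposite strand over 1056 bases, had 882 normalized counts on average.

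Of the 4 cytosolic folate enzymes Mthfd1 and Shmt1 stood lower in cKO. Mthfd1, which interconverts formate and the folate forms used for purines and thymidylate, measured 937, 1026 and 854 normalized counts in cKO and 1778, 1655 and 1668 in WT. The cKO mean was 55.2% of the WT mean (log2 difference −0.86, SE 0.09). Shmt1, the cytosolic serine hydroxymethyltransferase, measured 859.8, 991 and 818 in cKO and 1334, 1359 and 1383 in WT, or 65.5% (−0.62, SE 0.09). For both genes cKO2 was the highest cKO library, and the gap between the genotypes was larger than the spread inside either. The other members did not separate. Mthfs, which returns the storage form 5-formyl-folate to the pool, was low, at 17.7 to 33.5 in cKO and 18.0 to 60.9 in WT, and Mtr, the methionine synthase, ran from 307 to 377 and from 304 to 349.6.

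The ratio of the cytosolic to the mitochondrial paralog was taken per kilobase of exon, for pairs chosen with the values known. Shmt1 to Shmt2 was 0.791, 1.49 and 1.05 in cKO and 1.58, 1.47 and 1.64 in WT. Mthfd1 to Mthfd1l was 1.79, 2.69 and 2.06 in cKO and 2.86, 2.64 and 2.74 in WT. In both ratios cKO1 was the lowest library and cKO2 lay inside the range of WT, so the genotypes overlapped. Mthfd1 to Mthfd2 was 2.25 to 3.30 in cKO and 3.34 to 4.99 in WT, with cKO3 just under the lowest WT library.

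**Figure D2:**
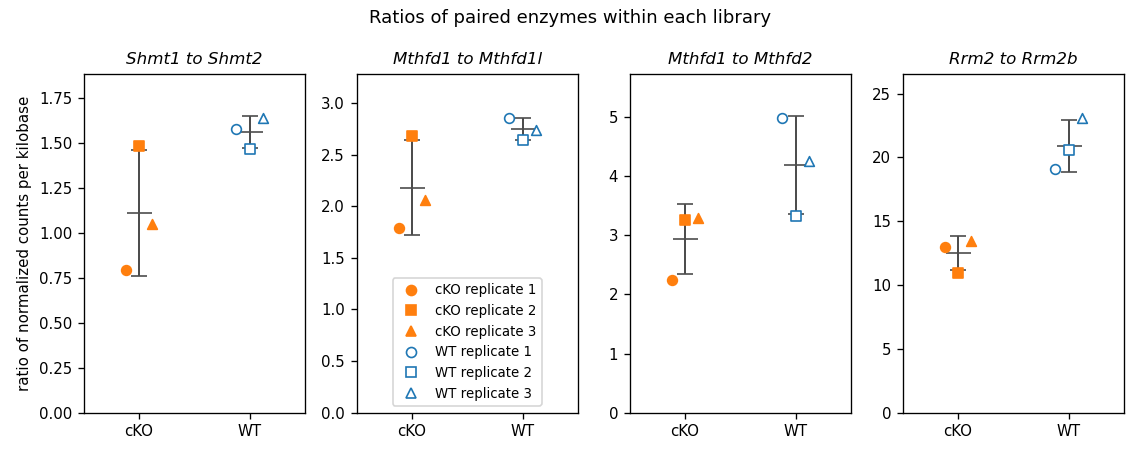
Ratios of paired enzymes per kilobase in each library (y axis, ratio with no unit). Circle, square and triangle are replicates 1, 2 and 3, orange is cKO, blue is WT, and bars give mean ± SD (n = 3). Rrm2 to Rrm2b is 11.0 to 13.4 in cKO and 19.0 to 23.1 in WT, whereas cKO2 lies inside the WT range for Shmt1 to Shmt2.

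The steps from PRPP to IMP are carried out by the 6 enzymes of this branch, and all 6 were below 0 in cKO, 5 of them without overlap. Pfas, the second amidotransferase of the route, was 539.7, 499.7 and 473 normalized counts in cKO and 787, 919 and 702 in WT (log2 difference −0.66, SE 0.12). Gart, a trifunctional enzyme that uses formyl-folate, measured 867, 848 and 659 in cKO and 1127, 1080.5 and 1115 in WT (−0.50, SE 0.12). Atic, which adds the last carbon from formyl-folate and closes the ring, measured 1698, 1599.7 and 1463 in cKO and 1988, 2362 and 2043 in WT (−0.42, SE 0.10). Both formyl-folate users thus stood apart between the genotypes in every library. Adsl, a lyase that acts both here and on the way to AMP, measured 705, 708 and 658 in cKO and 815, 945 and 854 in WT (−0.33, SE 0.09).

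Ppat and Paics, the head-to-head pair whose starts are printed above, differed least. Ppat, the committing amidotransferase, measured 695, 679 and 723 in cKO and 751, 766 and 732 in WT (−0.10, SE 0.08). Its genotypes did not overlap, but the nearest libraries were 723 and 732. Paics, which adds carbon dioxide and aspartate, measured 1487, 1359.8 and 1436 in cKO and 1480.3, 1366 and 1581 in WT (−0.05, SE 0.09). The annotated spans of Ppat and Paics overlap by 272 bases, and since strand use in counting is not stated their values are uncertain. The same holds for Psph, Aldh1l2, Shmt1, Impdh2 and Rrm2b, each of which overlaps a gene whose level was at least 20% of its own. For Shmt1 the overlap with Smcr8 is 184 bases.

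The branch from IMP to AMP and GMP had 4 of 4 members below 0. Impdh2, the inosine monophosphate dehydrogenase of dividing cells and the limiting step to GMP, measured 1062, 979.5 and 1102 normalized counts in cKO and 1274, 1322 and 1469.8 in WT (log2 difference −0.37, SE 0.09), without overlap. Impdh1 ran from 343 to 489.8 in cKO and from 449 to 544 in WT (−0.27, SE 0.15). Gmps, which aminates XMP, ran from 818 to 952 and from 945 to 1074 (−0.19, SE 0.09), and Adss, which starts the AMP branch, from 1525 to 1699 and from 1582 to 2082 (−0.23, SE 0.12). The salvage enzymes overlapped between the genotypes. Hprt, which recovers hypoxanthine and guanine, ran from 1290.2 to 1573 in cKO and from 1398 to 1588 in WT (−0.10, SE 0.10). Aprt, which recovers adenine, measured 1756, 1179.6 and 1303 in cKO and 1257, 1357 and 1168 in WT (0.15, SE 0.15), and its difference was −0.02 without cKO1.

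In pyrimidine synthesis the genes whose products make UMP from glutamine stood lower in every cKO library. Cad, which holds the first activities of the route in 1 chain, measured 1342, 1050.3 and 1036 normalized counts in cKO and 1701, 1739.9 and 1652 in WT (log2 difference −0.58, SE 0.11). Dhodh, the dehydrogenase of the inner mitochondrial membrane, measured 215, 210.1 and 178 in cKO and 245, 297 and 291 in WT (−0.46, SE 0.14). Umps, which attaches PRPP and decarboxylates to UMP, measured 467, 465 and 387 in cKO and 599, 642 and 519 in WT (−0.42, SE 0.12). The CTP synthases overlapped between the genotypes. Ctps ran from 501 to 799 in cKO and from 659 to 826 in WT (−0.28, SE 0.18), with cKO1 inside the WT range, and Ctps2 from 422 to 471 and from 415 to 463 (0.00, SE 0.10).

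Deoxynucleotide synthesis had 7 of 8 members below 0. Dctd, the dCMP deaminase that supplies dUMP to thymidylate synthase, had the lowest difference of all 37 members. It measured 132, 145 and 93.9 normalized counts in cKO and 240.0, 325 and 209 in WT, a cKO mean of 48.0% of WT (log2 difference −1.05, SE 0.23). Tyms, which methylates dUMP with folate, measured 520.5, 606 and 478 in cKO and 689, 737 and 783 in WT (−0.47, SE 0.11). Dut, which hydrolyzes dUTP to dUMP and keeps uracil out of DNA, measured 475, 475 and 409 in cKO and 557, 719.7 and 636 in WT (−0.49, SE 0.12). The 3 enzymes around dUMP were thus lower in every cKO library than in any WT library. Tk1, the thymidine kinase of S phase, measured 729, 792 and 654 in cKO and 909, 954 and 994 in WT (−0.40, SE 0.10). Dck, the deoxycytidine kinase, ran from 405 to 469.7 in cKO and from 459 to 714 in WT (−0.48, SE 0.17), where WT1 was inside the cKO range.

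Ribonucleotide reductase reduces ribonucleotides with a large subunit, Rrm1, and a small subunit, either Rrm2 of S phase or Rrm2b, a p53 target used outside S phase. Rrm1 measured 1834, 1470.4 and 1484 normalized counts in cKO and 1977, 2291 and 2107 in WT (log2 difference −0.42, SE 0.11). Rrm2 measured 772, 529.6 and 530.2 in cKO and 748, 1139.8 and 979.6 in WT (−0.65, SE 0.20), where cKO1 was above WT1. Rrm2b ran from 130.0 to 196 in cKO and from 129 to 183 in WT (0.10, SE 0.21). The ratio of Rrm2 to Rrm2b per kilobase was 13.0, 11.0 and 13.4 in cKO and 19.0, 20.6 and 23.1 in WT, and of 8 ratios computed it was the only one besides Mthfd1 to Mthfd2 in which all cKO libraries lay below all WT libraries. The pseudogene Gm3362 overlaps Rrm2b on the same strand over 466 bases at 107 normalized counts on average, so reads may be split between them.

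In WT the members spanned a wide range of level. Per kilobase of exon Hprt was highest at 1161 normalized counts, followed by Aprt (781), Paics (470.1), Impdh2 (440.5), Adss (420.4) and Mthfd1 (383), and Aldh1l2 (5.67) and Mthfs (4.91) were lowest. Among the paralogs Shmt1 (349.9) stood above Shmt2 (224), Mthfd2 (93.4) above Mthfd2l (24.7), Impdh2 (440.5) above Impdh1 (147) and Ctps (224) above Ctps2 (94.0). These are levels and not differences between the genotypes, and neither Hprt nor Mthfs, at the ends of the range, was among the members that did not overlap.

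**Figure D3:**
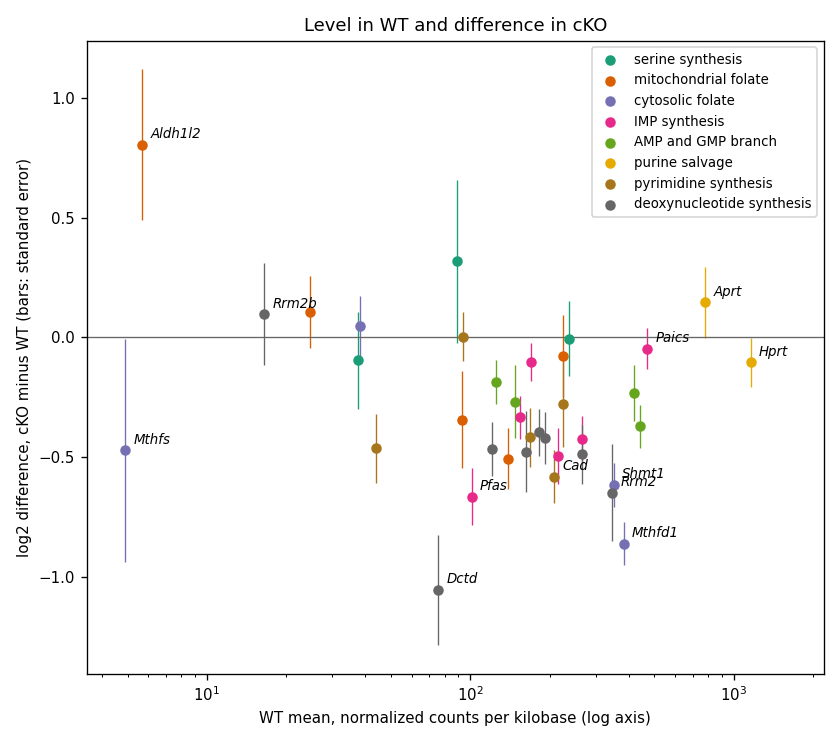
WT level per kilobase (x axis, normalized counts per kilobase, log scale) against the log2 difference cKO minus WT (y axis, bars are SE, n = 3 per genotype) for the 37 enzymes, colored by branch. Dctd at 75.6 and Mthfd1 at 383 per kilobase lie lowest on the y axis, and Aldh1l2 at 5.67 lies highest.

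Each library was also given a score per branch, the mean log2 difference of the members from the WT mean. Cytosolic folate scored −0.32, −0.53 and −0.56 in cKO1, cKO2 and cKO3 and 0.04, −0.23 and 0.19 in WT1, WT2 and WT3. IMP synthesis scored −0.27, −0.34 and −0.42 in cKO and −0.03, 0.06 and −0.03 in WT. Deoxynucleotide synthesis scored −0.34, −0.44 and −0.67 in cKO and −0.18, 0.18 and 0.00 in WT, and pyrimidine synthesis −0.18, −0.38 and −0.48 against −0.02, 0.07 and −0.05. The AMP and GMP branch scored −0.14, −0.35 and −0.30 in cKO and 0.06, 0.03 and −0.09 in WT. In these 5 branches every cKO library lay below every WT library. Serine synthesis scored 0.55, −0.22 and −0.11 in cKO, mitochondrial folate 0.32, −0.23 and −0.10 and purine salvage 0.28, −0.15 and −0.06, so in those branches cKO1 lay above every WT library and the other cKO libraries below the WT mean. By compartment, the 6 members located in mitochondria had a median difference of −0.21 with 4 of 6 below 0, and the 31 others a median of −0.37 with 26 below 0. The difference between the compartments was not tested, and without cKO1 the mitochondrial median was −0.39 and that of the others −0.41.

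**Figure D4:**
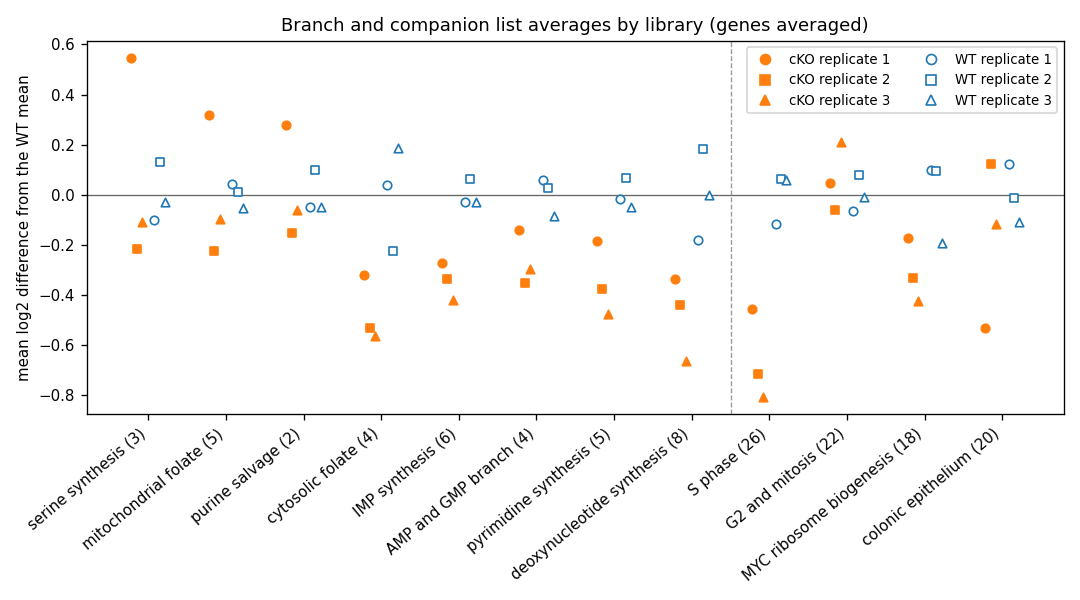
Score of each library (y axis, mean log2 difference from the WT mean) for the 8 branches and for companion gene lists (x axis). Orange is cKO and blue is WT, with circle, square and triangle for replicates 1, 2 and 3. The S phase scores lie between −0.81 and −0.46 in cKO and between −0.12 and 0.06 in WT, and the serine score of cKO1 is 0.55.

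Genes around the pathway were read from lists written from general knowledge, and 0 of their genes passed an adjusted p of 0.05 in the limma fit. These lists, and the marker lists below, were chosen with earlier results of these data known, so their counts are a description. Of folate uptake and retention, 4 of 6 tested genes were below 0. Fpgs, which adds the glutamate tail that keeps folate in cells, had a log2 difference of −0.41 (SE 0.15) and the reduced folate carrier Slc19a1 one of −0.48 (SE 0.21). Of the other folate and methyl cycle enzymes 9 of 14 were below 0, among them Gcsh of the glycine cleavage system (−0.29), Mtrr, which reactivates methionine synthase (−0.26), and the transsulfuration enzyme Cth (−0.52). Of PRPP synthesis 2 of 4 were below 0, with Prps2 at −0.30, Prpsap2 at −0.22 and Prps1 at 0.33. Of serine and glycine carriers 6 of 8 were below 0. Sfxn1, the mitochondrial serine carrier, measured 947, 1024 and 918 in cKO and 1352, 1249 and 1220.2 in WT (−0.40, SE 0.08). The glutamine and serine carrier Slc1a5 differed by −0.28 (SE 0.09) and the glycine carrier Slc6a9 by 0.34 (SE 0.18).

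Most nucleotide kinases were below 0, by a small median difference, and degrading enzymes did not move in 1 direction. Of 16 kinases 12 were below 0, with a median of −0.07. Dtymk, which phosphorylates dTMP, measured 652, 643 and 567 normalized counts in cKO and 745, 919 and 815 in WT (log2 difference −0.41, SE 0.11), the uridine kinase Uck2 differed by −0.19 (SE 0.09) and the mitochondrial adenylate kinase Ak4 by 1.05 (SE 0.47). Of 21 genes of breakdown and deamination 11 were below 0. Samhd1, which hydrolyzes deoxynucleoside triphosphates, measured 5664, 3490.2 and 3852 in cKO and 2476, 2132 and 2324 in WT (0.88, SE 0.18). Dpyd, the first enzyme of uracil and thymine breakdown, measured 9.59, 78.5 and 26.8 in cKO and 176, 166 and 112 in WT (−2.39, SE 0.71), and the uridine phosphorylase Upp1 differed by 0.67 (SE 0.23). Of the 21 genes 4 lay lower and 3 higher without overlap, Dpyd and Samhd1 among them. Over all tested genes 10.9% and 10.5% did so.

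Of the 26 genes of DNA replication and S phase entry, 26 were below 0 and 23 did not overlap, with a median of −0.68. E2f8, an atypical E2F that represses transcription, measured 392, 366 and 332 normalized counts in cKO and 625, 892 and 848 in WT (log2 difference −1.10, SE 0.15), Uhrf1 of maintenance methylation differed by −0.95 (SE 0.13) and the uracil glycosylase Ung by −0.85 (SE 0.12). The genes of G2 and mitosis did not do the same, with 9 of 22 below 0 and a median of 0.06 (−0.02 without cKO3). Without overlap 4 lay higher and 2 lower, the lower ones being Aurkb (−0.35) and Kif11 (−0.19). Cdc20, the activator of the anaphase-promoting complex, measured 927, 921 and 1176 in cKO and 707, 760.2 and 745 in WT (0.44, SE 0.11), Ccnb1 differed by 0.37 (SE 0.12) and Ccnb2 by 0.40 (SE 0.12). The part of cell cycle position in the members' differences was not tested.

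Of 18 MYC and ribosome biogenesis genes 18 were below 0 and 9 did not overlap, with a median of −0.35. Odc1, the first enzyme of polyamine synthesis, measured 3120.1, 2555 and 2257 normalized counts in cKO and 4011, 4612 and 3359 in WT (log2 difference −0.60, SE 0.15), Mybbp1a differed by −0.43 (SE 0.11) and the RNA polymerase I subunit Polr1a by −0.38 (SE 0.10). Myc itself ran from 469 to 648 in cKO and from 468 to 693 in WT. Of the 24 genes of the ATF4 response 12 were below 0, with a median of 0.00. Ddit4 differed by 0.58 (SE 0.16) and Cebpb by 0.65 (SE 0.20), both with all cKO libraries above WT, and the proline synthesis enzyme Aldh18a1 by −0.38 (SE 0.14). Of 14 genes of the p53 response 5 were below 0, with Fas at 0.67 (SE 0.22), Mdm2 at 0.25 (SE 0.10) and Aen at −0.38 (SE 0.16).

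Markers of neutrophils, fibroblasts and macrophages stood higher in cKO, and those of other cell types were mixed or mostly overlapped. All 6 neutrophil markers were above 0 in cKO, 3 without overlap, and S100a8 measured 2708, 31.0 and 417 normalized counts in cKO and 12.8, 38.7 and 29.0 in WT. All 7 fibroblast markers were above 0, 3 without overlap, with summed levels of 21388 to 43312 in cKO and 10935 to 18526 in WT, and Col3a1 of fibrillar collagen differed by 1.08 (SE 0.34). All 8 macrophage and monocyte markers were above 0, 3 without overlap, with summed levels of 9396 to 10064 against 5767 to 7957, and Lyz2 differed by 0.54 (SE 0.17). Of 20 epithelial markers 16 were below 0 and 0 lay without overlap, with a median of −0.10 and summed levels of 311856 to 504162 in cKO and 387765 to 463845 in WT. All 6 smooth muscle markers were below 0 and 4 of 5 endothelial markers above 0, with 0 of either without overlap. Of T and NK cell markers 4 of 9 were below 0 (median 0.05), with 1 lower without overlap. Of B and plasma cell markers 1 of 8 was below 0 (median 0.35, but −0.05 without cKO1), with 1 higher without overlap. Of germinal center B cell markers 0 of 6 were below 0 and 2 were higher without overlap, with a median of 0.30 (−0.03 in the lowest alternative). Of the 3 tested markers each of enteric neurons and glia and of erythroid cells 2 were below 0. The epithelial score was −0.53 in cKO1, 0.12 in cKO2 and −0.12 in cKO3, and the scores of all branches in the same libraries are given above. The part of tissue makeup in the members' differences was not tested.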

How the data were processed

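RNA of colonic tissue (TRIzol, NEBNext Ultra RNA kit per the labels) was sequenced in 3 cKO and 3 WT libraries. The submitters' processing notes name HISAT2 2.0.5, featureCounts 1.5.0-p3 and the human build hg18. The identifiers are mouse: 27164 genes matched GENCODE M21 on GRCm38, 97.3% with identical coordinates, all 37 members included. The authors deposited a signal per gene, the normalized count, which is reads divided by 1 size factor per library. Each library's values were multiples of a step of 0.900 to 1.11, and its total was 14914367 to 17547270 steps. Strand use and the handling of shared reads are not given in the sources used here, and how many reads a step stands for is not stated. The deposited genotype means, log2 fold changes and p-values of the authors' own comparison were not used. 

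A pseudocount of 1 was added before taking log2. The filter required an average value of 10 or more across all libraries, which 16246 genes met, and limma 3.58.1 (lmFit, eBayes with trend and robust) was run under R 4.3.3 with Benjamini-Hochberg adjustment over all tested genes at a threshold of 0.05. Fold changes on this scale understate the change of low genes. The fit was tested on simulated data. Alternatives were a replicate block, no filter, pseudocounts of 0.5 and 5, quantile normalization, leaving out each library, and array weights, the last chosen after seeing the data. Promoter windows and coordinates of the sequences are RefSeq's on GRCm38.p6. Figures were drawn with matplotlib 3.10.9.

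The members and all gene lists were chosen with earlier results of these data known. Values per library are given for members whose genotypes do not overlap and, in a branch with none, for the member with the highest absolute moderated t, and further members were named after their values were seen. Of each companion list the 3 genes with the highest absolute moderated t are named, and of marker lists that move the most abundant gene, except that 1 gene is not reported here. Of 276 companion and marker list entries 272 were in the table, with Cth and Fas each entered in more than 1 list. Ftcd, Bhmt, Dpys and Slc38a5 were not analysed here.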

Additional observations from a re-analysis of the deposited data

How the results depend on the processing

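Over 12 alternatives the members below 0 numbered 28 to 34 and their median log2 difference lay between −0.42 and −0.30. Over all genes 0 passed an adjusted p of 0.05 in limma in either direction, while 23 passed as lower and 7 as higher with no filter on low values, 369 and 262 with array weights, and 0 to 52 and 0 to 70 when 1 library was left out (22 and 2 without cKO1, 52 and 70 without cKO2). Members called lower numbered 0, but 2 with no filter, 17 with array weights, and 0 to 2 when 1 library was left out. Members called higher numbered 0 under every alternative run. Members whose genotypes did not overlap numbered 17, and 17 to 26 when 1 library was left out, with 26 without cKO1. With a library left out 14.4% to 19.1% of all tested genes did not overlap in that direction, against 10.9% with all 6. The causes were not tested. Of 444 member values under alternatives 16, in 9 members (Aprt, Ctps2, Mtr, Paics, Phgdh, Psat1, Psph, Rrm2b and Shmt2), had the other sign, and 26 of the 30 lower members stayed below 0 under every alternative. The median of cytosolic folate, −0.54, was −0.75 without WT2 and −0.32 without WT3, where Mthfs differed by −0.90 and −0.05. Count models were planned for counts and were not run on these normalized values. Libraries that share a replicate number did not deviate together (r between −0.09 and −0.03), no library correlated best with its own number, and the fit with the replicate block called 0 genes in either direction, with a median of −0.34 and 30 members below 0. Depth limits Mthfs and Aldh1l2, the members of lowest level.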
